A study of Mus musculus with 28 samples.

Results

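Mitochondrial complex III of regulatory T (Treg) cells was lost in 2 ways, by deletion of a subunit in the animal and by an inhibitor added in culture, and the comparison asks whether both change the same RNAs in the same direction. It uses 14 of the 28 libraries of the series, chosen by their labels: RISP_WT and RISP_KO (n = 4 each) and Untreated and AntimycinA (n = 3 each). All 14 are bulk RNA-seq libraries of sorted CD4+ YFP-Foxp3+ CD25+ cells from 3-week-old C57BL/6NJ mice. RISP_WT and RISP_KO cells carried or lacked RISP, the Rieske iron-sulfur protein encoded by Uqcrfs1, and their libraries came from the Takara kit (SMART-Seq v4 with Nextera XT). Untreated and AntimycinA cells were both RISP wild type, were kept in vitro without or with 1 µM antimycin A, and their libraries came from the NEB kit (NEBNext Ultra I, poly(A) selection). The driver of the deletion and the time in culture are not given in the sources used here. The libraries of the knockout and of the inhibitor share no control, and each effect was taken against its own control group before the 2 effects were compared.

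Complex III takes electrons from ubiquinol and passes them to cytochrome c while pumping protons. The Rieske protein carries the electrons away from the site where ubiquinol is oxidized, and antimycin A blocks the other quinone site of the complex, on cytochrome b. When ubiquinol is not reoxidized, enzymes that need ubiquinone, such as complex I, complex II and the dihydroorotate dehydrogenase of pyrimidine synthesis, lose their electron acceptor. Treg cells restrain other lymphocytes, and mitochondrial stress in mammalian cells is known to engage the transcription factor ATF4, which drives genes of amino acid import, tRNA charging and serine synthesis.

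The deposited counts came to 28.4 to 50.8 M per library for RISP_WT and RISP_KO and to 2.72 to 3.42 M for Untreated and AntimycinA. The kit, the culture and the depth thus differ between the pair of groups that measures the knockout and the pair that measures antimycin A, and in the difference between both effects they cannot be told apart from the kind of complex III loss. Levels are in CPM, the count divided by the library size in M after scaling by trimmed mean of M values (TMM), are given in the order of the replicate numbers, and are compared only within a kit. Cd4 read 611 to 781 CPM in RISP_WT and RISP_KO and 383 to 507 CPM in vitro, and Foxp3, the defining factor of Treg cells, read 26.0 to 40.1 and 493 to 733 CPM. Cd8a stayed at or under 1.87 CPM in every library. In bulk RNA, fewer cells of a kind and less RNA per cell cannot be told apart. The X-linked RNA Xist and the Y-linked Ddx3y differed among the replicates of RISP_WT (3.37 to 60.1 and 0.0537 to 103.6 CPM) and of RISP_KO (5.19 to 81.1 and 0.185 to 86.4 CPM), whereas in vitro Xist was at most 1.94 CPM and Ddx3y 113 to 167 CPM. In RISP_WT 1 library held 5050 of 5566 Ddx3y counts, and in RISP_KO 1 held 2876 of 3046. The makeup by sex read from these RNAs thus also differed between both pairs of groups. It too cannot be told apart from the kind of complex III loss. Other cell types were read by 9 marker lists, whose summed levels did not overlap between RISP_KO and RISP_WT in 6 (2 higher and 4 lower in RISP_KO) and between AntimycinA and Untreated in 2 (both lower in AntimycinA). The share of all genes without overlap is not given here, so these counts are not read as a change of cells. Summed macrophage and monocyte markers (14 genes) spanned 73.3 to 196 CPM in RISP_WT and 18.5 to 71.4 in RISP_KO, and 27.5 to 41.9 in Untreated and 37.7 to 55.7 in AntimycinA, where Adgre1 and the C1q genes were at 0. Summed B cell markers (12 genes) spanned 825 to 1012 CPM in RISP_WT, 612 to 810 in RISP_KO, 458 to 519 in Untreated and 336 to 436 in AntimycinA. The sum hides a split. Of the 5 B cell markers tested as in the next paragraph, 1 rose and 2 fell in the knockout. With antimycin A 1 rose and 1 fell, with log2 effects from -0.87 to 4.17. The most negative difference between both effects among them, -6.36, was also the most negative of all 10615 genes tested. Summed plasma cell markers (8 genes) spanned 198 to 264 CPM in RISP_WT, 373 to 458 in RISP_KO, 177 to 180.3 in Untreated and 135 to 171 in AntimycinA. Nearly all of this sum was 1 gene, Xbp1, which is also on the list of endoplasmic reticulum chaperones. Alone it read 196 to 260 CPM in RISP_WT, 372 to 457 in RISP_KO, 173 to 176 in Untreated and 135 to 169 in AntimycinA. CD8 and cytotoxic markers (8 genes) spanned 147 to 180.5 CPM in RISP_WT and 183 to 262 in RISP_KO, stromal and endothelial markers (11 genes) 206 to 219 and 126 to 154, and NK cell markers (8 genes) 7.72 to 10.5 and 3.90 to 5.84, and in culture these 3 overlapped. Their part in the results was not tested.

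In 1 model of the 14 libraries, 10615 genes could be tested for the knockout effect, for the antimycin A effect and for the difference between them (knockout effect minus antimycin A effect). A gene was called at an adjusted p under 0.05 in edgeR's quasi-likelihood test. The knockout effect was called for 1284 genes (12.1%), of which 652 rose (6.14%) and 632 fell (5.95%). The antimycin A effect was called for 1468 genes (13.8%), with 663 up (6.25%) and 805 down (7.58%). The difference itself was called for 1990 genes (18.7%), positive for 1044 (9.84%) and negative for 946 (8.91%). Without RISP_WT replicate 3 the knockout calls were 847, and without AntimycinA replicate 3 the antimycin A calls were 948. A positive difference means a higher value with the knockout than with antimycin A, each relative to its control.

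Both effects were called for 302 genes, and they had opposite signs in 227 of these and the same sign in 75. The opposite genes made up 17.7% of the genes called in the knockout and 15.5% of those called with antimycin A, and the same-sign genes 5.84% and 5.11%. Among the opposite genes, 129 rose in the knockout and fell with antimycin A, with medians of 0.55 and -0.72 on the log2 scale, and 98 fell in the knockout and rose with antimycin A, with medians of -0.51 and 0.63. Since opposite effects add up in the difference, it was called for all 227, which carries no further weight. Among the same-sign genes, 55 rose in both and 20 fell in both. The difference was not called for 66 of the 75, which does not show that the effects were equal. Across the 10615 genes the effects had a Pearson correlation of -0.15 and a Spearman correlation of -0.18, as a description over genes, which are not independent replicates. The count of opposite genes was 132 without RISP_WT replicate 3, 133 without RISP_WT replicate 1 and 148 without Untreated replicate 1, and with a 1.5-fold minimum in each test 4 were opposite and 6 of the same sign.

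**Figure D1:**
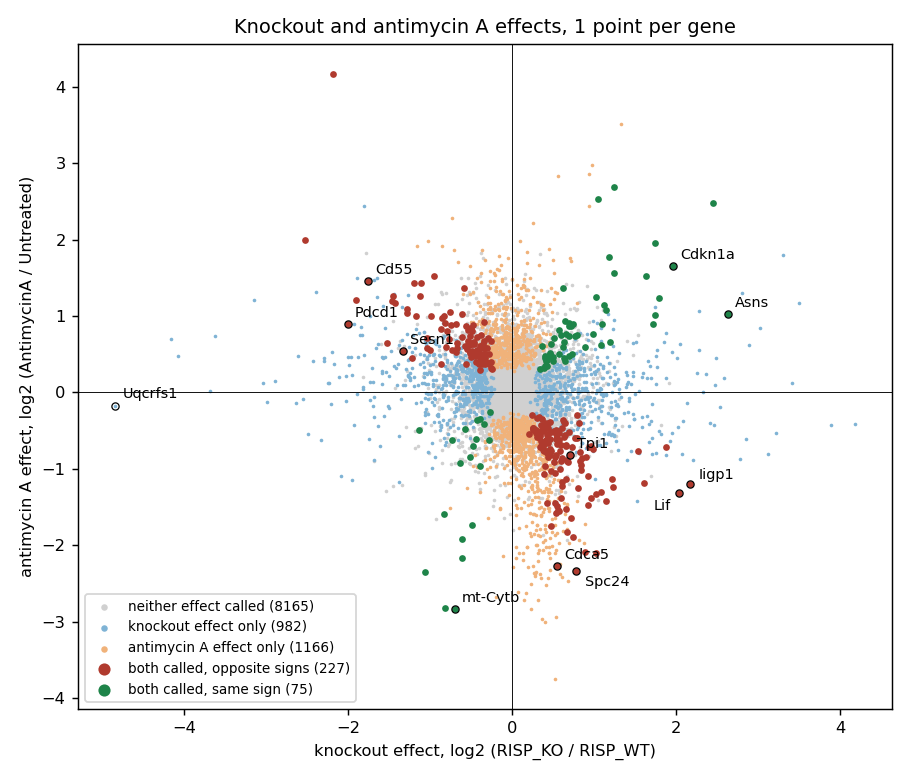
Each point is 1 of 10615 genes, with the log2 knockout effect (RISP_KO over RISP_WT) on the horizontal axis and the log2 antimycin A effect (AntimycinA over Untreated) on the vertical axis, coloured by which effects were called. The 227 genes called with opposite signs lie in the upper left and lower right, the 75 called with the same sign in the upper right and lower left, and genes called in 1 comparison lie along the axes.

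A further 982 genes were called in the knockout alone and 1166 with antimycin A alone. A call in 1 comparison and not in the other does not show a difference. The difference was called for 523 of the 982 (227 up and 296 down in the knockout) and for 862 of the 1166 (330 up and 532 down with antimycin A), and for 369 genes for which neither effect was called. Genes named below as extremes of opposite, same-sign or singly called genes were picked only where the groups of each called comparison did not overlap. For them the lack of overlap was fixed by the choice and carries no weight. Over 28 pathway lists, the median effects had opposite signs in 17: up in the knockout and down with antimycin A in 13, and the reverse in 4. The median over all genes was 0.00 for the knockout, 0.05 for antimycin A and -0.04 for the difference.

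**Figure D2:**
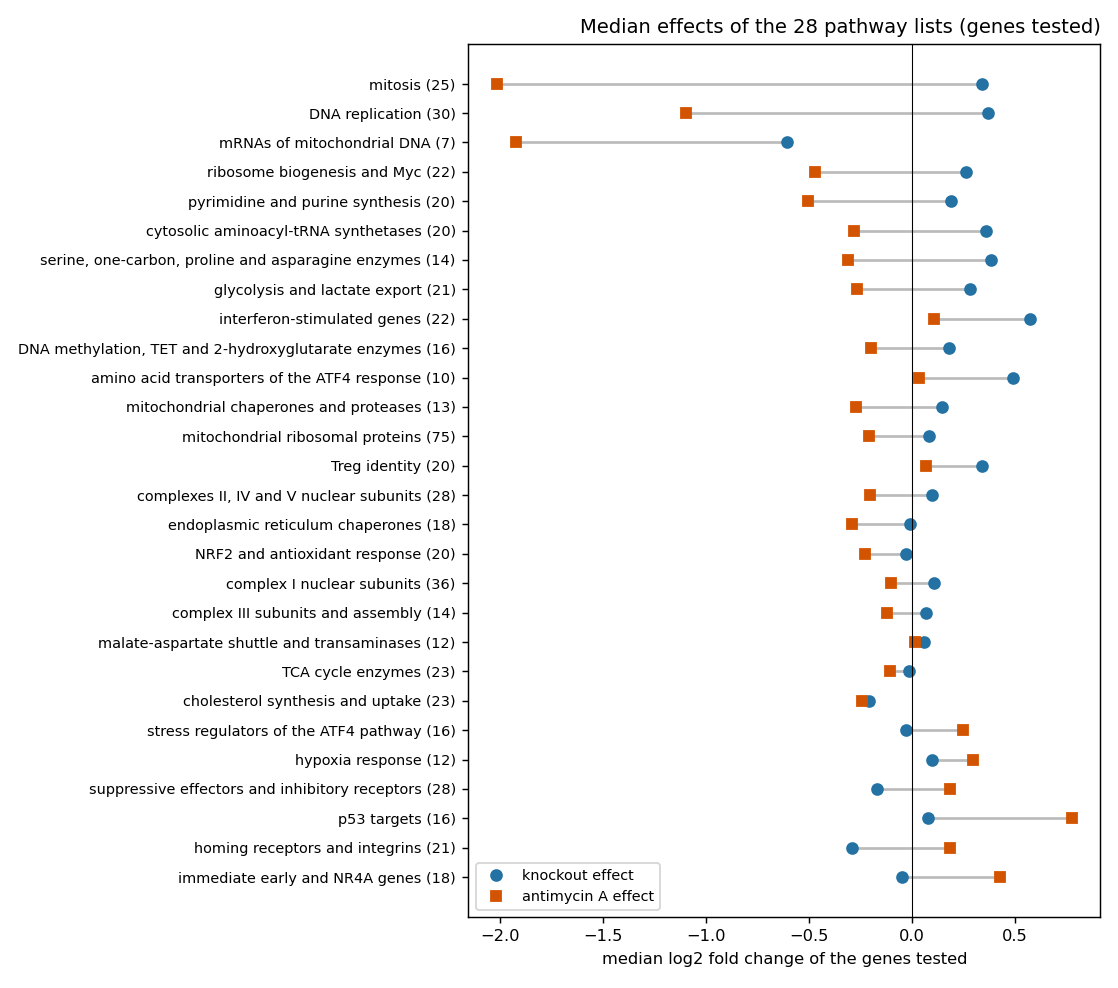
Median log2 fold change of the tested genes of each of 28 pathway lists, as circles for the knockout effect and squares for the antimycin A effect, ordered by the median difference, with the number of genes in brackets. The lists at the top (mitosis, DNA replication, mitochondrial mRNAs) have squares far to the left, and p53 targets and homing receptors near the bottom have squares to the right of circles.

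The targeted subunit separated the groups as labelled. Uqcrfs1 (chr13:30540308-30545362, mm10) read 198, 157, 195 and 183 CPM in RISP_WT and 7.49, 5.92, 5.46 and 6.73 CPM in RISP_KO, with no overlap. In culture it read 47.7, 95.8 and 59.8 CPM in Untreated and 58.4, 70.4 and 51.9 CPM in AntimycinA, where the groups overlapped, so that the Rieske mRNA was lost with the knockout and present with the inhibitor. The knockout effect was -4.84 ± 0.19 (SE, log2, adjusted p = 4.18e-11), the antimycin A effect -0.17 ± 0.21 (adjusted p = 0.636) and the difference -4.67 ± 0.28 (adjusted p = 3.04e-08, edgeR). Of the 14 tested subunits and assembly factors of complex III, Uqcrfs1 was the only one called in the knockout (7.14%, against 12.1% of all genes). With antimycin A, 2 fell (14.3%, against 7.58% of all genes). The difference was called in 4 (28.6%, against 18.7% of all genes), up for 3 of them and down for Uqcrfs1. The core subunit Cyc1, cytochrome c1, had effects of 0.25 and -0.34 that were not called, with a called difference of 0.59 ± 0.16 (adjusted p = 0.0177). The small subunit Uqcr10 had a knockout effect of -0.02 (adjusted p = 0.925) and fell with antimycin A, at -0.75 ± 0.15 (adjusted p = 0.00333). Without Untreated replicate 3 the differences of Cyc1 (0.50, adjusted p = 0.0608) and Uqcr10 (0.61, adjusted p = 0.0507) were no longer called, nor was that of Cyc1 without AntimycinA replicate 3 (0.56, adjusted p = 0.0504).

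The mRNAs encoded by mitochondrial DNA fell under both kinds of loss, and further with antimycin A. mt-Cytb, the cytochrome b subunit that antimycin A binds, read 2599.5, 2481, 2557 and 3057 CPM in RISP_WT and 1719, 1593, 1519 and 1741 CPM in RISP_KO. It read 2761, 2304 and 2391 CPM in Untreated and 246, 378 and 417 CPM in AntimycinA. Neither pair of groups overlapped. The effects were -0.70 ± 0.12 in the knockout (adjusted p = 0.000861) and -2.84 ± 0.15 with antimycin A (adjusted p = 6.89e-09), and the difference of 2.14 ± 0.19 was called (adjusted p = 3.33e-06). The complex I subunits mt-Nd4 (-0.82 and -2.82) and mt-Nd5 (-0.61 and -2.16) moved in the same way. Of 7 mitochondrial mRNAs tested, 5 fell in the knockout and all 7 with antimycin A, with medians of -0.61 and -1.92, and the difference was called in all 7. Over all genes, 5.95% fell in the knockout, 7.58% fell with antimycin A and 18.7% had a called difference. The other 6 had no more than 1 count over the 6 libraries of Untreated and AntimycinA and were not tested. The 12S ribosomal RNA of the same genome, mt-Rnr1, went the other way in culture. It read 841, 614 and 687 CPM in Untreated and 3179, 3202 and 3606 CPM in AntimycinA, a rise of 2.22 ± 0.14 (adjusted p = 3.68e-08), against a knockout effect of 0.25 ± 0.12 that was not called (adjusted p = 0.179).

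Few nuclear genes of the respiratory chain were called in the knockout, against 12.1% of all genes. The share of called differences was below the 18.7% of all genes for complex I and the mitochondrial ribosomal proteins, and above it for complexes II, IV and V and for the mitochondrial chaperones. Of 36 nuclear complex I subunits, edgeR called 0 in the knockout, DESeq2 0 and limma voom 1, and 3 had an unadjusted p under 0.05, all positive. Of the same 36, 3 fell with antimycin A (8.33%, against 7.58% of all genes), the difference was called in 3 (8.33%), and the medians were 0.11 and -0.10. Of 28 subunits of complexes II, IV and V, 1 rose in the knockout and 8 fell with antimycin A (medians 0.10 and -0.20), and the difference was called in 9 (32.1%), all positive. That 1 gene, Atp5b, the catalytic beta subunit of ATP synthase, had opposite effects of 0.24 ± 0.07 (adjusted p = 0.0269) and -0.30 ± 0.08 (adjusted p = 0.0192). Sdhd, a membrane anchor of complex II, fell with antimycin A, at -0.73 ± 0.10 (adjusted p = 0.000129), with a knockout effect of -0.11 that was not called. Among 75 mitochondrial ribosomal proteins, 2 rose in the knockout and 10 fell with antimycin A (medians 0.08 and -0.21), among them Mrpl12 at -0.73 ± 0.13 (adjusted p = 0.0014), and the difference was called in 7 (9.33%). Of 13 mitochondrial chaperones and proteases, 2 rose in the knockout and 3 fell with antimycin A, with a called difference in 5 (38.5%), and Hspa9, the matrix Hsp70, was called in both, at 0.57 ± 0.10 and -0.53 ± 0.12.

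Cell cycle genes gave the widest separation. All 25 tested genes of mitosis fell with antimycin A, with a median of -2.01, whereas 1 was called in the knockout, up, with a list median of 0.34 and all 25 values positive. The difference was called in all 25, with a median of 2.32. Of 30 tested genes of DNA replication, 25 fell with antimycin A (median -1.10) and 8 rose in the knockout (median 0.37), all 8 among the 25, and the difference was called in 28. Called in the knockout, with antimycin A and in the difference were 4%, 100% and 100% of the mitosis genes. For the replication genes these shares were 26.7%, 83.3% and 93.3%, and for all genes 12.1%, 13.8% and 18.7%. The summed level of the mitosis list was 1462 to 1703 CPM in RISP_WT and 1669 to 2494 in RISP_KO, groups that overlapped, and 1948 to 2257 in Untreated and 296 to 718 in AntimycinA, groups that did not.

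Cdca5 (chr19:6084983-6091777, mm10) encodes sororin, which keeps sister chromatids joined. It read 25.1, 26.0, 25.4 and 26.9 CPM in RISP_WT and 49.2, 33.3, 33.8 and 34.9 CPM in RISP_KO, where replicate 1 was highest and each knockout library lay above each wild type library. In culture it read 36.5, 38.6 and 28.1 CPM in Untreated and 6.07, 9.42 and 5.61 CPM in AntimycinA, again without overlap. The knockout effect was 0.55 ± 0.16 (adjusted p = 0.0302), the antimycin A effect -2.27 ± 0.24 (adjusted p = 1.58e-05) and the difference 2.82 ± 0.29 (95% interval 2.22 to 3.42, adjusted p = 9.5e-06). Spc24, a kinetochore subunit, had effects of 0.77 ± 0.21 and -2.34 ± 0.33, and Nuf2, its partner in the same complex, 0.47 ± 0.13 and -1.75 ± 0.19, all called. Sgo2a, a shugoshin that guards centromeric cohesion, had 0.74 ± 0.17 and -1.89 ± 0.24. Pole, the catalytic subunit of the leading strand polymerase, read 39.2, 36.4, 34.0 and 36.0 CPM in RISP_WT, 62.5, 55.2, 56.0 and 65.5 in RISP_KO, 128, 129 and 113 in Untreated and 50.3, 35.7 and 32.6 in AntimycinA. It was higher in every RISP_KO library than in any RISP_WT library and lower in every AntimycinA library than in any Untreated library, with a difference of 2.36 ± 0.20 (adjusted p = 1.75e-06).

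Most cell cycle genes were called with antimycin A alone. The mitotic kinase gene Pbk read 29.0, 35.3 and 16.3 CPM in Untreated and 3.71, 4.43 and 1.75 CPM in AntimycinA, an effect of -3.00 ± 0.33, against 33.5, 30.7, 34.0 and 32.6 in RISP_WT and 55.8, 36.5, 38.7 and 41.0 in RISP_KO, an effect of 0.40 ± 0.19 that was not called (adjusted p = 0.203). All RISP_KO values of Pbk were above all RISP_WT values, although the test did not call it. The other genes named by the same rule were Orc1 of the origin recognition complex (difference 3.15 ± 0.43), the replication factor Mcm10 (2.87 ± 0.36), Ube2c, the ubiquitin-conjugating enzyme of the anaphase-promoting complex (3.03 ± 0.39), the spindle checkpoint kinase Ttk (2.95 ± 0.49) and the kinetochore protein Cenpf (2.94 ± 0.46), with adjusted p of 7.43e-05, 5.02e-05, 5.44e-05, 0.000445 and 0.000241. Plk1 and Top2a, a mitotic kinase and the topoisomerase that untangles chromosomes, had antimycin A effects of -2.51 ± 0.28 and -1.83 ± 0.21 and knockout effects of 0.23 and 0.49 that were not called. Ttk was uneven among libraries, with 22.9, 19.4 and 8.63 CPM in Untreated.

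**Figure D3:**
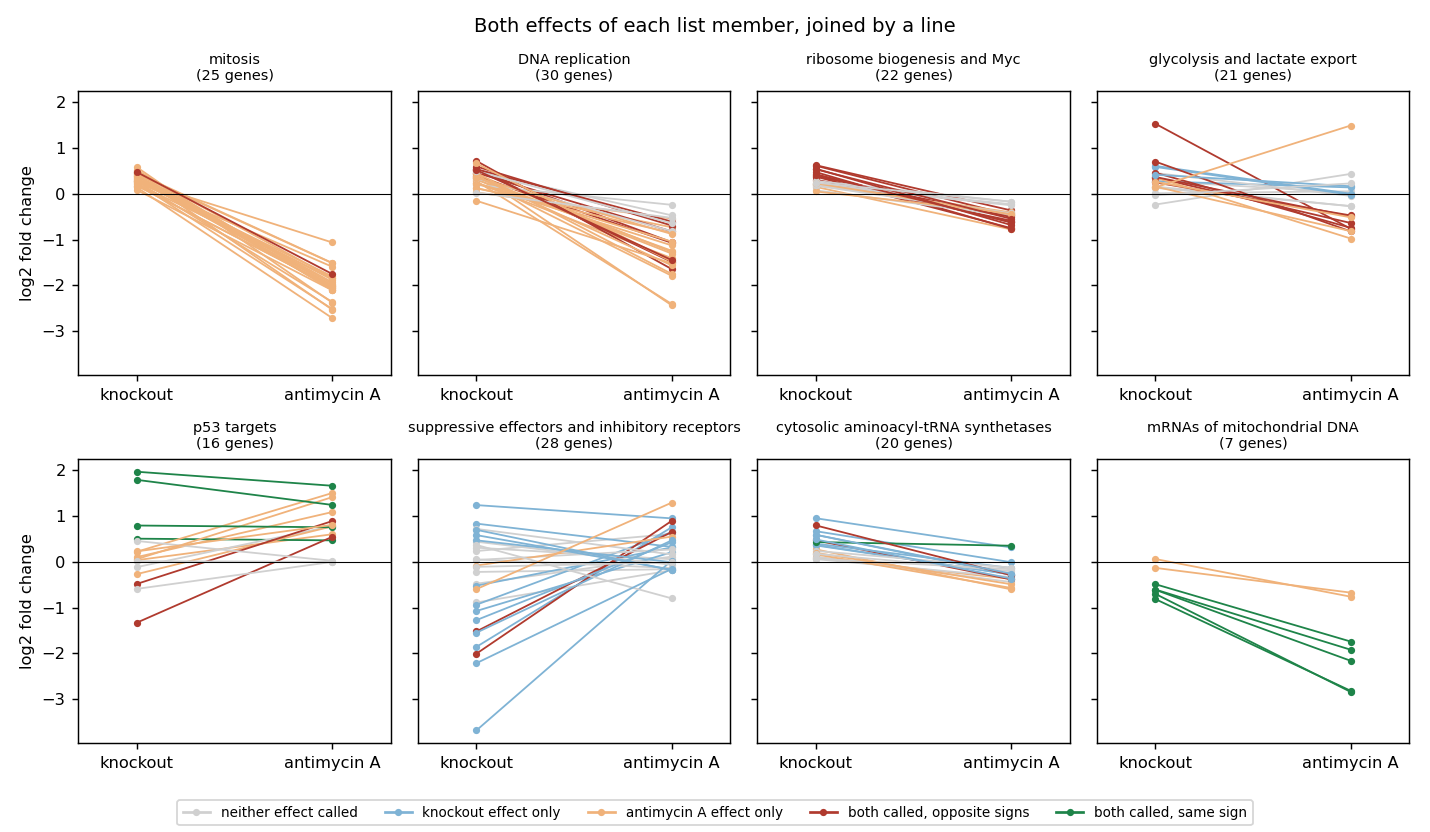
Both effects of every tested member of 8 lists, joined by a line, as log2 fold changes (vertical axis) in the knockout (left) and with antimycin A (right of each panel), coloured by which effects were called. The lines of mitosis, DNA replication and ribosome biogenesis run from above 0 down to below 0 with few exceptions, those of p53 targets mostly upward, and those of the mitochondrial mRNAs from just below or near 0 to far below.

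Genes of the cell cycle are known to share promoter elements, so the promoters of the members of both lists were read, whether or not the gene was called. Promoter windows (250 bases before to 50 after the start, RefSeq, GRCm38.p6, which is the mm10 build) were found for 21 of the 25 mitosis genes and 23 of the 30 replication genes. The core TTTGAA of the cell cycle homology region, searched on both strands, stood in 15 of the 21 mitosis promoters (71.4%), against 20.2% of all 27025 genes with a window and 14.1% of the genes tested that have a window. The E2F forms TTTGGCGC or TTTCGCGC, searched on both strands, stood in 9 of the 23 replication promoters (39.1%), against 0.929% of all genes and 1.95% of genes tested. Both motifs were chosen after the values were seen, and a match describes the letters and not a bound site. The 15 mitosis genes with TTTGAA had a median antimycin A effect of -2.01, and the 6 without it -2.04. The windows printed below were picked as examples that hold a match, and Cdca5 belongs to neither list. Windows of 150 bases, from 100 bases before the start, are printed below for Cdca5 (chr19:6084997-6085146, plus strand), Cenpf (chr1:189688037-189688186, minus strand), Ttk (chr9:83834589-83834738, plus strand) and Lig1 (chr7:13278726-13278875, plus strand), a DNA ligase with effects of 0.38 and -1.56, 5′ to 3′ on the strand of the gene, with TTTGAA or, in Lig1, the E2F form in capitals on either strand.
Cdca5: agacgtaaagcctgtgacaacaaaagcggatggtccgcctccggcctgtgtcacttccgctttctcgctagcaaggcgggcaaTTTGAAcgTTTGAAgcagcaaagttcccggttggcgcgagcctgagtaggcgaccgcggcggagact
Cenpf: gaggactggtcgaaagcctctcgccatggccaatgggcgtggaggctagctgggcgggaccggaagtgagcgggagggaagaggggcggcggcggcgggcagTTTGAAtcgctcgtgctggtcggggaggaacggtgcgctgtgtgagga
Ttk: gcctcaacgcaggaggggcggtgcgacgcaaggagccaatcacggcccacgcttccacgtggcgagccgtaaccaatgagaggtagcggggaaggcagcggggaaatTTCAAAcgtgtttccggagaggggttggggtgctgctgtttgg
Lig1: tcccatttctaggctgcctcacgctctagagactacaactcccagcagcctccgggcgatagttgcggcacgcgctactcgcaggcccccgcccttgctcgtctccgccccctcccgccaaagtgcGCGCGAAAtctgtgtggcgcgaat

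Genes of ribosome biogenesis and of nucleotide synthesis also had median effects of opposite sign in the 2 comparisons. Among 22 genes of ribosome biogenesis and Myc, 10 rose in the knockout and 15 fell with antimycin A, all 10 among the 15, with medians of 0.26 and -0.47 and a called difference in 18. The shares called (knockout, antimycin A, difference) were 45.5%, 68.2% and 81.8%, against 12.1%, 13.8% and 18.7% of all genes. Ncl (chr1:86344719-86359400, mm10), the nucleolar protein nucleolin, read 608, 732, 637 and 844 CPM in RISP_WT and 1079, 925, 998 and 914 CPM in RISP_KO. It read 2341, 2181 and 2251 CPM in Untreated and 1427, 1309 and 1251 CPM in AntimycinA. Each knockout library was above each wild type library and each AntimycinA library below each Untreated one, with effects of 0.47 ± 0.10 (adjusted p = 0.00281) and -0.76 ± 0.11 (adjusted p = 0.000215). Mybbp1a, a nucleolar Myb-binding protein, had 0.53 ± 0.09 and -0.55 ± 0.11, and Nop56, of the box C/D snoRNP that guides rRNA methylation, 0.62 ± 0.08 and -0.36 ± 0.10. Of 20 genes of pyrimidine and purine synthesis, 4 rose and 1 fell in the knockout while 13 fell with antimycin A (medians 0.19 and -0.50), and the difference was called in 16, up for 15. Here the shares called were 25%, 65% and 80%, in the same order. Cad, the enzyme that starts pyrimidine synthesis, had called effects of 0.69 ± 0.10 and -0.52 ± 0.12. The ribonucleotide reductase subunits Rrm1 and Rrm2 fell with antimycin A, at -1.29 ± 0.16 and -2.17 ± 0.23, with knockout effects of 0.31 and 0.05 that were not called.

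Glycolysis genes also had median effects of opposite sign, but not in every member. The knockout effect was positive in 19 and negative in 2, and the antimycin A effect positive in 8 and negative in 13. Of 21 genes, 10 rose in the knockout, and 9 fell and 1 rose with antimycin A (medians 0.28 and -0.27). Effects were opposite in 6, Hk2, Tpi1, Gapdh, Pgk1, Eno1 and Pkm, which cover steps from hexokinase to pyruvate kinase, and the difference was called in 12, up for 11. Each effect was called in 47.6% of the list and the difference in 57.1%, against 12.1%, 13.8% and 18.7% of all genes. Tpi1 (chr6:124810586-124814296, mm10), triosephosphate isomerase, read 190.2, 215, 207 and 207 CPM in RISP_WT and 369.8, 310.2, 353 and 301 CPM in RISP_KO. It read 206, 161 and 184 CPM in Untreated and 122, 99.4 and 90.4 CPM in AntimycinA. No group overlapped its control, and the effects were 0.70 ± 0.10 (adjusted p = 0.000161) and -0.82 ± 0.13 (adjusted p = 0.000369), with a difference of 1.52 ± 0.16 (95% interval 1.18 to 1.87). Gapdh had 0.46 ± 0.07 and -0.74 ± 0.08. Ldha, lactate dehydrogenase A, fell with antimycin A, at -0.81 ± 0.08, while its knockout effect of 0.16 ± 0.07 was not called (adjusted p = 0.168). Pfkfb4, the 1 gene of the list that rose with antimycin A, had an effect of 1.49, against 0.14 in the knockout, not called. It encodes a bifunctional enzyme that sets the level of a phosphofructokinase activator.

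Genes of 4 lists of the ATF4 pathway were called up more often in the knockout than with antimycin A. Over all genes, 6.14% and 6.25% were called up, 5.95% and 7.58% were called down, and 18.7% had a called difference. Of 20 cytosolic aminoacyl-tRNA synthetases, 11 rose in the knockout, whereas 6 fell and 1 rose with antimycin A (medians 0.36 and -0.28), and the difference was called in 15, all positive. Of 14 enzymes of serine, one-carbon, proline and asparagine metabolism, 9 rose in the knockout, whereas 4 fell and 1 rose with antimycin A (medians 0.38 and -0.31), with a called difference in 9. Of 10 amino acid transporters, 5 rose in the knockout and 2 with antimycin A (medians 0.49 and 0.03). The difference was called in 3 of them (30%), all positive. Of 16 stress regulators of the pathway, 4 rose in the knockout and 3 with antimycin A (medians -0.03 and 0.25). Their difference was called up for 1 and down for 2 (18.75%, against 18.7% of all genes), and 9 of the 16 knockout values were negative. In these 4 lists edgeR and DESeq2 called 0 falls in the knockout, and 0 genes fell at an unadjusted p under 0.05.

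Asns (chr6:7675169-7693254, mm10), asparagine synthetase, rose in both. It read 7.91, 12.2, 6.88 and 14.7 CPM in RISP_WT and 94.1, 59.3, 49.4 and 55.8 CPM in RISP_KO, and 19.9, 22.1 and 18.5 CPM in Untreated and 47.2, 36.8 and 39.6 CPM in AntimycinA. Neither pair of groups overlapped. Its effects were 2.63 ± 0.23 (adjusted p = 1.11e-06) and 1.03 ± 0.30 (adjusted p = 0.0275), and the difference of 1.60 ± 0.37 was called (adjusted p = 0.00541), the knockout effect being the larger. Phgdh, the first enzyme of serine synthesis, instead moved in opposite directions. It read 223, 255, 226 and 247 CPM in RISP_WT and 499, 366, 319 and 388 CPM in RISP_KO, and 212, 199 and 186 CPM in Untreated and 148, 112 and 105 CPM in AntimycinA, with no overlap in either pair. Its effects were 0.72 ± 0.12 (adjusted p = 0.000727) and -0.71 ± 0.15 (adjusted p = 0.00455). Shmt1, the cytosolic serine hydroxymethyltransferase, split likewise (0.82 ± 0.14 and -0.78 ± 0.18), while its mitochondrial counterpart Shmt2 rose in the knockout (0.99 ± 0.11) and had an antimycin A effect of -0.10 ± 0.13 that was not called (adjusted p = 0.655).

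Among transporters, Slc1a4, a carrier of alanine, serine and cysteine, read 1.84, 1.37, 1.79 and 1.56 CPM in RISP_WT and 18.1, 11.1, 11.5 and 12.6 CPM in RISP_KO, groups far apart, and 9.35, 4.32 and 6.07 and 8.10, 13.3 and 13.7 CPM in Untreated and AntimycinA, groups that overlapped. The knockout effect was 3.02 ± 0.26 (adjusted p = 7.15e-07) and the difference 2.18 ± 0.42 (adjusted p = 0.0014). Slc7a5, the light chain of the leucine carrier, had 0.97 ± 0.12 in the knockout and -0.24 ± 0.15 with antimycin A, the latter not called. Vars and Gars, the synthetases for valine and glycine, had called effects of opposite sign, 0.79 ± 0.08 and -0.29 ± 0.10 for Vars and 0.47 ± 0.08 and -0.39 ± 0.10 for Gars. Kars, for lysine, was called with antimycin A alone, at -0.60 ± 0.11. Trib3, a pseudokinase that is itself an ATF4 target, was the 1 stress regulator that rose in both (1.74 and 1.02). Sesn2 and Ddit4, which restrain mTORC1, rose with antimycin A alone. Sesn2 read 15.1, 16.7 and 23.0 CPM in Untreated and 75.6, 43.8 and 45.2 CPM in AntimycinA, an effect of 1.59 ± 0.26, against -0.27 ± 0.19 in the knockout (adjusted p = 0.419). Its difference of -1.86 ± 0.32 was called (adjusted p = 0.000609). For Ddit4 the effects were 0.73 ± 0.17 and 0.07, and the difference of -0.66 ± 0.22 was close to the threshold (adjusted p = 0.0471), and the call was lost under 17 of 27 alternatives, with adjusted p up to 0.776.

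ATF4 binds composite elements of the form TGATGNAA. On both strands, this form stood in 15 of 54 promoters of the 4 ATF4 lists (27.8%), against 4.51% of all genes with a window and 2.64% of genes tested. The lists were drawn up around the ATF4 pathway, so the higher share carries no weight as a result of these data. A match describes the letters and not a bound site. Of the 9 tested members with the element, 7 rose in the knockout (median 0.67) and 2 rose and 1 fell with antimycin A (median -0.01), and of the 36 without it, 16 rose in the knockout (median 0.30) and 5 rose and 5 fell with antimycin A (median -0.09). The windows of Asns (chr6:7693160-7693309, minus strand), Slc1a4 (chr11:20332664-20332813, minus strand) and Gars (chr6:55037901-55038050, plus strand) are shown because their antimycin A effects differ in sign, 1.03, 0.84 (not called) and -0.39, while all rose in the knockout. They run from 100 bases before the start to 50 bases after it (RefSeq, GRCm38.p6), 5′ to 3′ on the strand of the gene, with the element in capitals on either strand.
Asns: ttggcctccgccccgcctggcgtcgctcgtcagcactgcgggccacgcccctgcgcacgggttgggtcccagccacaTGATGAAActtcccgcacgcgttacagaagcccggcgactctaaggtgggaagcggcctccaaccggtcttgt
Slc1a4: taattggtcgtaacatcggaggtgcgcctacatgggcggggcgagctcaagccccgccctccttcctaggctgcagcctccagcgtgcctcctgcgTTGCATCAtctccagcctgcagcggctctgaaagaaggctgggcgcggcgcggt
Gars: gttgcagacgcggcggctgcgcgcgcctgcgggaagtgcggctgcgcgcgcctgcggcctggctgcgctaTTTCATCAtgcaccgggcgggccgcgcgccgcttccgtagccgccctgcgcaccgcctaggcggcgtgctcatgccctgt

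The p53 targets held a shared rise and also opposite members. Of 16 tested, 12 rose with antimycin A, and 4 rose and 2 fell in the knockout (medians 0.77 and 0.08). The 4, Cdkn1a, Phlda3, Zmat3 and Bax, rose in both. In this list 37.5% were called in the knockout, 75% with antimycin A and 50% in the difference. Over all genes these shares were 12.1%, 13.8% and 18.7%. Cdkn1a (chr17:29090979-29100722, mm10), the cyclin-dependent kinase inhibitor p21, read 6.33, 3.44, 4.87 and 5.89 CPM in RISP_WT and 20.8, 11.9, 25.3 and 22.1 CPM in RISP_KO. It read 19.3, 27.8 and 35.2 CPM in Untreated and 106, 77.3 and 76.0 CPM in AntimycinA. Every RISP_KO and AntimycinA library lay above all of its controls, with effects of 1.96 ± 0.24 (adjusted p = 2.99e-05) and 1.66 ± 0.29 (adjusted p = 0.00103). The difference of 0.31 ± 0.37 was not called (adjusted p = 0.613), and its 95% interval ran from -0.47 to 1.08. Phlda3, which competes with Akt for membrane lipids, had 1.79 ± 0.21 and 1.24 ± 0.26, with an interval of the difference from -0.15 to 1.25.

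Sesn1, a sestrin of the same list, went apart. It read 341, 401, 439.6 and 386 CPM in RISP_WT and 158, 163, 135 and 168 CPM in RISP_KO, and 49.5, 65.8 and 54.0 CPM in Untreated and 64.4, 84.2 and 98.5 CPM in AntimycinA. The knockout libraries were all below their controls, and the AntimycinA libraries overlapped Untreated at 64.4 and 65.8 CPM. Its effects were -1.33 ± 0.12 (adjusted p = 1.25e-06) and 0.54 ± 0.16 (adjusted p = 0.0265), with a difference of -1.87 ± 0.20. Btg2, an antiproliferative gene, had -0.48 ± 0.13 and 0.89 ± 0.16, both called. Ccng1, cyclin G1, rose with antimycin A (1.08 ± 0.13) with a knockout effect of 0.10 ± 0.11 that was not called.

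**Figure D4:**
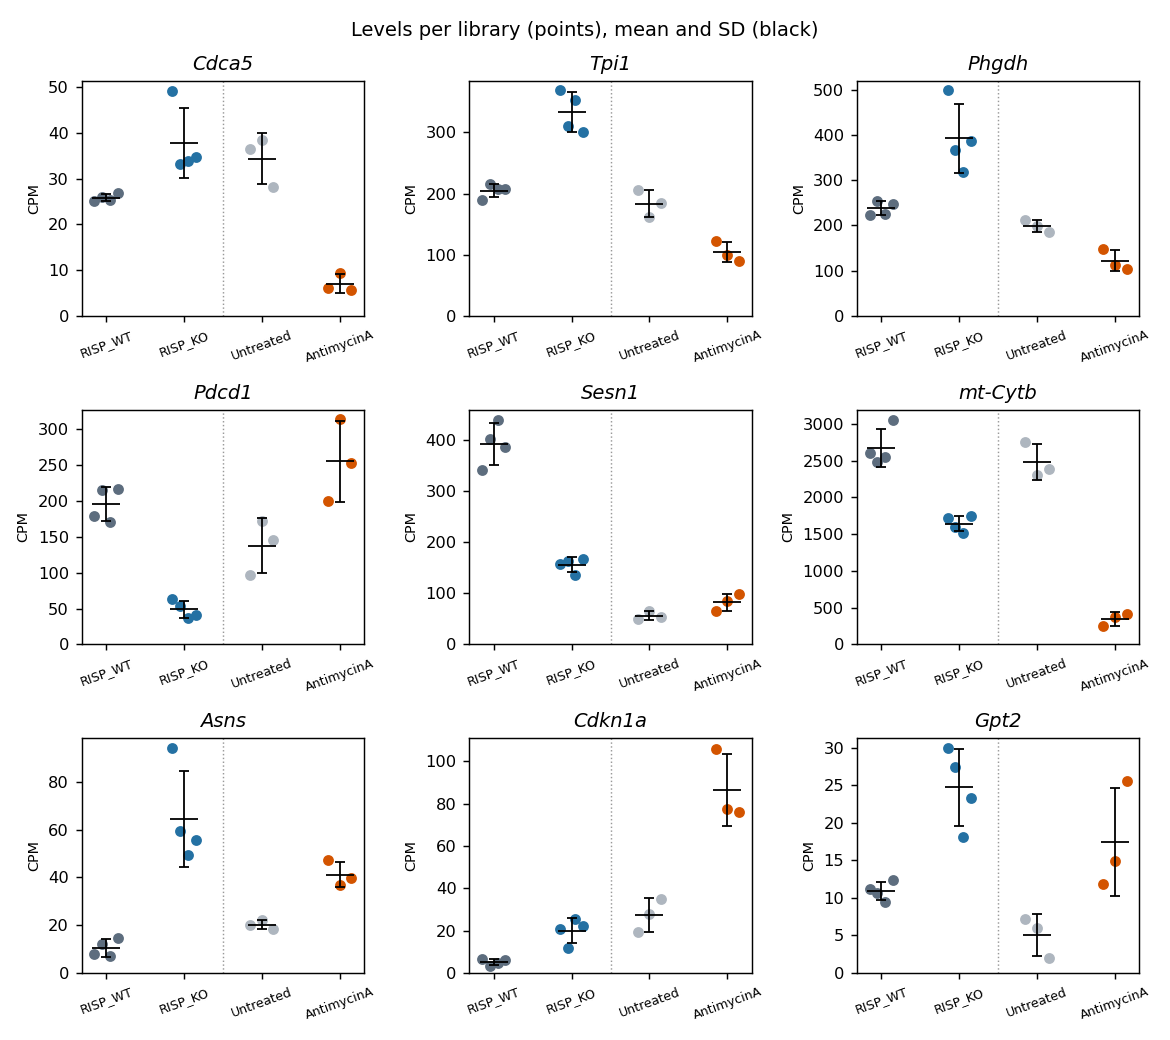
Levels of 9 genes in CPM (vertical axes from 0), 1 point per library, with the mean and SD in black, for RISP_WT and RISP_KO (n = 4 each, Takara kit) left of the dotted line and Untreated and AntimycinA (n = 3 each, NEB kit) right of it. Cdca5, Tpi1 and Phgdh are higher in RISP_KO and lower in AntimycinA than in their controls, Pdcd1 and Sesn1 the reverse, mt-Cytb is lower in both, and Asns, Cdkn1a and Gpt2 are higher in both.

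Inhibitory receptors and effector genes of Treg cells carried large falls in the knockout and rises or smaller values with antimycin A. Of 28 tested suppressive effectors and inhibitory receptors, 10 fell and 5 rose in the knockout, and 4 rose with antimycin A (medians -0.17 and 0.18), with a called difference in 13, down for 11. The shares called (knockout, antimycin A, difference) were 53.6%, 14.3% and 46.4%, against 12.1%, 13.8% and 18.7% of all genes. With antimycin A the share was thus near that of all genes. Pdcd1 (chr1:94038305-94052553, mm10), the receptor PD-1, read 179, 215, 171 and 217 CPM in RISP_WT and 62.6, 53.7, 36.8 and 41.5 CPM in RISP_KO. It read 96.5, 171 and 145 CPM in Untreated and 200.4, 314 and 252 CPM in AntimycinA. The groups did not overlap in either pair, and the effects were -2.01 ± 0.19 (adjusted p = 1.51e-06) and 0.89 ± 0.22 (adjusted p = 0.0102), with a difference of -2.90 ± 0.28 (95% interval -3.50 to -2.30, adjusted p = 6.95e-06). Tigit, a receptor for CD155, read 20.7, 32.0, 21.4 and 22.2 CPM in RISP_WT and 7.92, 9.06, 8.26 and 8.35 CPM in RISP_KO, and 92.0, 106 and 88.9 and 141, 159.8 and 149 CPM in Untreated and AntimycinA. It too was apart in both pairs, with effects of -1.52 ± 0.14 and 0.65 ± 0.16.

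Klrg1, a receptor of differentiated Treg cells, read 180.1, 119, 109 and 109.6 CPM in RISP_WT and 4.46, 5.66, 22.0 and 8.26 CPM in RISP_KO, an effect of -3.68 ± 0.38 (adjusted p = 5.28e-06). In culture it read 11.2, 7.82 and 10.2 CPM in Untreated and 10.8, 6.92 and 12.3 CPM in AntimycinA, an effect of 0.03 ± 0.57, and the difference was -3.70 ± 0.68 (adjusted p = 0.00101). The groups overlapped in culture, where the level was low. Fgl2, a secreted suppressive mediator, fell in the knockout (-1.86 ± 0.28) and had 0.75 ± 0.34 with antimycin A, not called, as did the transcription factor gene Maf (-1.55 ± 0.17 and 0.47 ± 0.20). Bcl6, a repressor, rose with antimycin A (1.29 ± 0.30) with a knockout effect of -0.60 ± 0.20 (adjusted p = 0.0592). Il10 and Ctla4 were called in none of the comparisons. Il10 read 1.04 to 9.59 CPM in RISP_WT and RISP_KO and had effects of -0.89 ± 0.37 and -0.19 ± 0.43, and Ctla4 had 0.05 ± 0.13 and -0.14 ± 0.15.

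Among 20 genes of Treg identity, 9 rose and 3 fell in the knockout, and 2 rose and 2 fell with antimycin A (medians 0.34 and 0.07). These are 60% and 20% of the list, against 12.1% and 13.8% of all genes. The difference was called in 45%, against 18.7%. Foxp3 had a knockout effect of 0.01 ± 0.13 and an antimycin A effect of 0.37 ± 0.15 (adjusted p = 0.108), and its difference, with a 95% interval from -0.77 to 0.05, was not called. Il2ra, whose CD25 chain the sort used, rose in the knockout (0.58 ± 0.09, adjusted p = 0.000231), and the difference of 0.88 ± 0.14 was called (adjusted p = 0.000232), with an antimycin A effect of -0.29 ± 0.10 (adjusted p = 0.0651). Nrp1, a semaphorin receptor of thymic Treg cells in mice, read 353, 443, 368 and 387 CPM in RISP_WT and 101, 115, 104 and 98.8 CPM in RISP_KO, and 221, 223 and 209.7 and 194, 232 and 221 CPM in Untreated and AntimycinA. It fell in every knockout library (-1.89 ± 0.09) while the culture groups overlapped (-0.02 ± 0.11). Socs2, a feedback inhibitor of cytokine signalling, was the 1 gene of this list with opposite called effects (0.81 ± 0.10 and -0.40 ± 0.12), and in the chimeras described at the end its knockout effect was called the other way, at -0.49 (adjusted p = 0.00251).

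Homing receptors and integrins fell in 9 of 21 genes in the knockout and rose in 3, and with antimycin A 3 rose and 1 fell (medians -0.29 and 0.18). That is 57.1% and 19.0% of the list, against 12.1% and 13.8% of all genes. The difference was called in 52.4%, against 18.7%. The integrin chains Itga4 and Itgb1 had knockout effects of -1.74 ± 0.16 and -1.25 ± 0.15 and antimycin A effects of 0.14 and 0.18 that were not called. Ccr8, a chemokine receptor of tissue Treg cells, rose in the knockout (0.99 ± 0.12), with -0.07 ± 0.15 in culture. Ccr6 was the 1 gene of the list called in both, down at -0.73 ± 0.14 and -0.63 ± 0.18.

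Genes of the interferon response rose in the knockout, with 12 of 22 up (median 0.57), and 3 fell with antimycin A (median 0.11). Those 3, Iigp1, Irf1 and Irgm1, were among the 12. The shares called (knockout, antimycin A, difference) were 54.5%, 13.6% and 40.9%, against 12.1%, 13.8% and 18.7% of all genes. With antimycin A the share was thus near that of all genes. Iigp1, a GTPase directed at vacuolar pathogens, read 65.7, 86.1, 61.7 and 82.0 CPM in RISP_WT and 141, 363, 355 and 464 CPM in RISP_KO, and 189, 165 and 119.5 and 41.8, 88.9 and 74.3 CPM in Untreated and AntimycinA. Both pairs were apart, although the RISP_KO libraries differed widely, and the effects were 2.16 ± 0.28 and -1.20 ± 0.33 (difference 3.36 ± 0.43, adjusted p = 5.44e-05). Gbp2 and Igtp, GTPases of the same response, rose in the knockout (1.71 ± 0.25 and 1.09 ± 0.15) with antimycin A effects of -0.59 and -0.40 that were not called. The summed level of the 30 interferon genes was 3581 to 4247 CPM in RISP_WT and 4247 to 8091 in RISP_KO, where the lowest knockout library lay at the highest wild type one.

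Beyond these lists, 180 of the 227 opposite genes belonged to none of the pathway lists. Lif, a cytokine of the interleukin 6 family, read 7.06, 8.20, 6.25 and 8.95 CPM in RISP_WT and 25.1, 35.8, 32.8 and 31.3 CPM in RISP_KO, and 62.1, 61.0 and 51.1 and 24.6, 24.1 and 21.0 CPM in Untreated and AntimycinA. The groups stood well apart in both pairs, with effects of 2.03 ± 0.15 (adjusted p = 2.28e-07) and -1.32 ± 0.19 (adjusted p = 0.000192) and a difference of 3.35 ± 0.24. Ncf1, an organizer of the phagocyte NADPH oxidase, had 1.87 ± 0.14 and -0.72 ± 0.17. In the other direction, Cd55, decay-accelerating factor, which protects cells from complement, read 41.3, 35.1, 41.2 and 32.1 CPM in RISP_WT and 7.34, 15.7, 10.6 and 10.7 CPM in RISP_KO, and 5.13, 13.8 and 7.35 and 20.9, 19.4 and 32.9 CPM in Untreated and AntimycinA. It was lower in every RISP_KO library and higher in every AntimycinA library than in the controls. Its effects were -1.76 ± 0.25 and 1.46 ± 0.34, with a difference of -3.21 ± 0.42 (adjusted p = 5.74e-05, edgeR). Lif and Cd55 could be picked only because neither pair of groups overlapped, so their separation carries no weight. Smpdl3a, a phosphodiesterase, had -1.18 ± 0.09 and 1.00 ± 0.12, Neurl3, a ubiquitin ligase, -1.46 ± 0.19 and 1.19 ± 0.23, and Gna15, a G protein alpha subunit, -1.13 ± 0.21 and 1.26 ± 0.30.

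Other genes were called in 1 comparison and had a called difference. Il12rb2, the signalling chain of the interleukin 12 receptor, read 0.964, 1.5, 0.691 and 3.00 CPM in RISP_WT and 11.7, 10.4, 37.8 and 33.2 CPM in RISP_KO, an effect of 3.89 ± 0.48, and 17.8, 15.1 and 9.27 and 10.5, 14.4 and 6.31 CPM in Untreated and AntimycinA, groups that overlapped. Its difference of 4.31 ± 0.75 was called (adjusted p = 0.000601). By the same rule, Fndc10 (3.29 ± 0.44), Ybx3 (2.54 ± 0.60), a cold shock domain protein, Lad1 (2.48 ± 0.25) and Pros1, protein S (2.38 ± 0.31) had positive differences and a called knockout effect. Ybx3 stood at 18.8, 18.1, 22.8 and 97.2 CPM in RISP_KO, with replicate 4 far above the others, and without that library its difference was 1.57 (adjusted p = 1.48e-05). Pros1 rose by 2.47 in the knockout, whereas its knockout effect in the chimeras was -0.94 (adjusted p = 0.0419). Nrn1, neuritin (-3.16 ± 0.38), Ncmap (-2.75 ± 0.29) and Il18rap, a chain of the interleukin 18 receptor (-2.55 ± 0.63), had negative ones. With antimycin A alone, Dcxr, a carbonyl reductase of sugars (1.87 ± 0.39), Lamb3, a laminin chain (1.45 ± 0.28), and Pcnx4 (1.3 ± 0.29) rose, and their knockout effects of -0.37, -0.38 and -0.52 were not called.

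The genes that moved the same way with no called difference were few, and their intervals were wide. Gpt2, the mitochondrial alanine transaminase, read 11.1, 10.6, 9.42 and 12.4 CPM in RISP_WT and 29.9, 27.4, 18.1 and 23.3 CPM in RISP_KO, and 7.24, 5.93 and 1.92 and 11.8, 15 and 25.6 CPM in Untreated and AntimycinA. It was higher in every library with loss of complex III than in its controls, with effects of 1.18 ± 0.25 and 1.77 ± 0.37 and a 95% interval of the difference from -1.54 to 0.35. Rgs12, a regulator of G protein signalling, had 1.63 ± 0.22 and 1.53 ± 0.30, and Abcb1a, a P-glycoprotein, 1.24 ± 0.30 and 1.57 ± 0.37. Among the genes that fell in both were Tuba1c, an alpha tubulin (-0.63 ± 0.15 and -0.92 ± 0.20), Fam111a, a nuclear protease (-0.52 ± 0.11 and -0.85 ± 0.13), Tagln2, an actin-binding protein (-0.57 ± 0.12 and -0.48 ± 0.14), and Tmem126a, a factor of complex I assembly (-0.44 ± 0.11 and -0.61 ± 0.15). Lclat1, which remodels cardiolipin, fell in both, further in the knockout (-1.14 ± 0.10 and -0.49 ± 0.12, adjusted p of the difference 0.00704).

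In the remaining lists, against 18.7% of all genes, the difference was called in 6 of 18 endoplasmic reticulum chaperones, 6 of 20 antioxidant genes, 4 of 12 genes of the malate-aspartate shuttle, 9 of 16 of DNA methylation, 4 of 18 immediate early genes, 3 of 12 hypoxia genes, 4 of 23 TCA cycle enzymes and 2 of 23 cholesterol genes. Over all genes, 6.14% rose and 5.95% fell in the knockout, and 6.25% rose and 7.58% fell with antimycin A. Of 23 TCA cycle enzymes, 1 rose in the knockout, Idh2 (0.67 ± 0.10), and 2 fell with antimycin A, among them Fh1, fumarase (-0.70 ± 0.15). Of 12 genes of the malate-aspartate shuttle and transaminases, 4 rose in the knockout, and 1 rose and 3 fell with antimycin A, with opposite effects for Bcat1, a cytosolic branched-chain aminotransferase (0.96 ± 0.19 and -1.39 ± 0.24). Got1 rose in the knockout (0.80 ± 0.09, with -0.00 ± 0.11 in culture) and its mitochondrial counterpart Got2 fell with antimycin A (-0.77 ± 0.11, with 0.21 ± 0.08 in the knockout, not called). Of 12 hypoxia genes, 1 fell in the knockout, Bnip3l (-0.43 ± 0.11), and 2 rose with antimycin A, among them Ndrg1 (0.93 ± 0.21). Cholesterol genes had like medians (-0.21 and -0.24), with 3 and 2 of 23 down. Of 20 antioxidant genes, 2 rose and 3 fell in each comparison, and catalase, Cat, was called in opposite directions (-0.43 ± 0.11 and 0.49 ± 0.15). Nqo1, a quinone reductase, read 6.94, 2.70 and 0.959 CPM in Untreated and 13.5, 9.69 and 17.2 CPM in AntimycinA, a rise of 1.92 ± 0.58, with -1.16 ± 0.42 in the knockout (adjusted p = 0.0819). Of 18 chaperones of the endoplasmic reticulum, 7 fell with antimycin A and 1 rose in the knockout, the transcription factor Xbp1 (0.82 ± 0.10). Of 18 immediate early genes, 4 rose and 1 fell with antimycin A, and 3 rose and 1 fell in the knockout. Nr4a3 and Ier5 had opposite called effects, 0.50 ± 0.13 and -0.50 ± 0.14 for Nr4a3 and -0.34 ± 0.11 and 0.58 ± 0.13 for Ier5. Of 16 genes of DNA methylation and 2-hydroxyglutarate, 3 rose in the knockout and 6 fell with antimycin A, and Uhrf1, which brings Dnmt1 to replicated DNA, did both (0.52 ± 0.14 and -1.44 ± 0.17).

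The kit could be set equal by taking the knockout effect from the chimeras, whose Treg cells came from animals aged 8 to 12 weeks and whose libraries came from the NEB kit as in vitro. Of the 227 opposite genes, 156 had a chimera knockout effect of the same sign as in 3-week-old mice, and 166 had a called difference to antimycin A in the same direction. The chimera knockout effect itself was called for 6 of them. The 227 genes were chosen for a called antimycin A effect in the same Untreated and AntimycinA libraries, so a chimera knockout effect near 0 still gives a called difference, and the 166 carries no weight. In the chimeras Cdca5 had 1.53 (adjusted p = 0.0200), Tpi1 0.08, Pdcd1 -0.52 and Phgdh 0.12, the last 3 not called, and their differences to antimycin A (3.83, 0.92, -1.39 and 0.85) were called in edgeR. mt-Cytb fell again, at -0.93 (adjusted p = 0.00366), with a called difference of 1.94. Of the 75 same-sign genes, 61 had a chimera effect of that sign, and the chimera effect was called for 8. Among genes with a called difference, 1211 of 1983 had a chimera knockout effect of the same sign as in 3-week-old mice. Cdkn1a had a chimera knockout effect of -0.46 and Asns 0.57, neither called. For Cdkn1a the difference became -2.09 (adjusted p = 0.0311). Of the 78 named genes with a called knockout effect in 3-week-old mice, 17 had a chimera effect of the other sign, called for Socs2 and Pros1, and 13 had a called chimera effect of the same sign. Of 127 named genes, the difference kept its sign and lost its call in 33 and changed sign in 11. It gained a call in 2, Abcb1a (-1.90, adjusted p = 0.00231) and Fam111a (0.62, adjusted p = 0.0241, edgeR). Knockout effects called in the chimeras but not in 3-week-old mice included Plk1 (1.15), Top2a (0.92), Ttk (1.47), mt-Rnr1 (0.58) and Ndrg1 (0.68). Those of Pbk, Orc1, Ube2c, Cenpf and Mcm10 were called in neither. Examples of the 33 are Nrn1 (-0.37), Ybx3 (0.43), Got1 (0.065), Idh2 (0.075), Cat (-0.39), Xbp1 (0.25), Lclat1 (-0.21), Gbp2 (0.70), Igtp (0.52), Ier5 (-0.80), Atp5b (0.31), Klrg1 (-0.69), Il12rb2 (0.90), Slc1a4 (0.82), Itga4 (-0.31), Nop56 (0.21) and Vars (0.090). Age, the chimera and the kit change together in this comparison and cannot be told apart.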

How the data were processed

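All values start from the deposited tables of raw counts, with a whole number of reads for each Ensembl gene in each library. Per the submitters' processing notes, the reads passed through bcl2fastq, TopHat (mm10), HTSeq and edgeR, and versions, strand setting and filters are not given in the sources used here. Per the labels' protocols, kits differ between tables (Takara for RISP_WT and RISP_KO, NEB for in vitro and chimera libraries). A further table with 11 per-sample columns that carry no labelled sample name was not used here.

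The tables were joined by gene ID (43430 IDs, 42462 with a symbol). Genes had to pass filterByExpr (minimum count 10) by group in both tables, which left 10615. One model with a coefficient per group was fitted to the 14 libraries in R 4.3.3 with edgeR 4.0.16 (TMM factors, glmQLFit, glmQLFTest, prior count 0.125), and the 3 comparisons are contrasts of it. Adjusted p is by Benjamini-Hochberg over all genes tested, with calls under 0.05, and tests are two-sided. The SE is the unshrunken log2 value divided by the square root of F, and intervals cover 95%. The between-library coefficient of variation was 18.4% for RISP_WT and RISP_KO and 13.8% in vitro. The median SE was 0.15 for the knockout effect, 0.19 for the antimycin A effect and 0.24 for the difference, which sets the precision.

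The groups, the 28 pathway lists and 10 lists of cell type markers, and the tests were chosen with earlier results of these data known. Named genes are Uqcrfs1, Il2ra, Foxp3, Il10 and Ctla4, the extremes of the difference in each class (mean log2 CPM of at least 3 in both tables and no overlap between the groups of a called comparison; the 6 most positive and 6 most negative, for the same-sign class 4 and 4, and without a called difference the 5 highest and 5 lowest by the smaller effect), and up to 3 members per list. Predicted genes, pseudogenes and variable segments of immunoglobulin and T cell receptors were passed over. Members named to spell out a count were chosen after their values were seen. The labels do not say whether replicates are separate animals, so a p-value covers only how these libraries vary, and that variation may be technical. No pair of libraries in a group agreed within sampling noise. Values of some single marker genes are not reported here. Without the strand setting, reads of overlapping or antisense genes cannot be told apart.

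Alternatives were DESeq2 1.42.0, other scaling factors and filters, limma 3.58.1 voom with weights per table, thinning of the deeper libraries to 3.08 M counts (seed 1), a replicate block, a 1.5-fold minimum, fits of more or fewer libraries, the chimera knockout effect and leaving out each library. The fit was also tested on simulated data made from the depth and spread of these libraries.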

Additional observations from a re-analysis of the deposited data

Results flagged for a closer look

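In groups of 4 libraries, the gap of the highest or lowest library to its nearest neighbour, as a share of the whole range, was compared with Dixon's critical value at the 95% level. Of 256 groups of RISP_WT or RISP_KO values of the named genes, 17 passed, and chance passes about 1 in 20. RISP_KO replicate 1 was highest for Lig1 (0.941), Cdca5 (0.899), Ndufa10 (0.882) and Lad1 (0.861). Cdca5 read 49.2 CPM there against 33.3 to 34.9 in the other knockout libraries, and Lig1 164 against 109 to 113 CPM. RISP_KO replicate 4 was highest for Ybx3 (0.941), at 97.2 against 18.1 to 22.8 CPM, and lowest for Pros1 (0.880). Other knockout libraries apart were replicate 2 for Smpdl3a (highest, 0.844) and Ttk (lowest, 0.838), and replicate 3 for Xbp1 (highest, 0.907). RISP_WT replicate 1 was highest for Ttk (0.979), Klrg1 (0.859) and Lamb3 (0.854) and lowest for Got2 (0.874) and Creld2 (0.849). Klrg1 read 180.1 CPM there against 109 to 119 in the other wild type libraries. RISP_WT replicate 2 was highest for Tigit (0.866) and lowest for Tmem126a (0.889), and replicate 4 lowest for Btg2 (0.831). What set these libraries apart was not tested, and without any of them the differences of these genes kept their sign, and all but that of Ndufa10 their call or lack of it.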

How the results depend on the processing

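The count of genes with a called difference was 1656 to 2328 under 11 alternatives of tool, scaling, filter, weights, depth, block and samples, and 1603 to 2100 when 1 library was left out. With a 1.5-fold minimum the difference was called for 518 genes, the knockout effect for 194, the antimycin A effect for 185, with 6 same-sign and 4 opposite genes. With the chimera knockout effect the difference was called for 1263 genes, with 22 same-sign and 31 opposite. When 1 library was left out, knockout calls ran from 847 to 1404, antimycin A calls from 948 to 1627, opposite genes from 132 to 249 and same-sign genes from 52 to 104. The cause of these shifts was not tested.

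The replicate numbers pair no samples by the labels, and same-numbered libraries deviated together with correlations of -0.13 to 0.10 between RISP_WT and RISP_KO and 0.02 to 0.05 between Untreated and AntimycinA, where each of the 3 correlated best with its own number. With a replicate block the difference was called for 1656 genes, the knockout effect for 957, the antimycin A effect for 1137, with 63 same-sign and 138 opposite genes.

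Of 128 named genes, 13 changed the sign of their difference somewhere. With the chimera knockout effect these were Ctla4 (-0.35), Fndc10 (-0.41), Pros1 (-1.01), Asns (-0.43), Cdkn1a (-2.09), Rgs12 (-0.999), Phlda3 (-0.87), Tagln2 (0.33), Stard4 (0.041), Socs2 (-0.068) and Ccr8 (-0.39). When 1 library was left out, Rgs12 ran from -0.31 to 0.38, Tagln2 from -0.16 to 0.037, Abcb1a from -0.72 to 0.020 and Ccr6 from -0.22 to 0.11, none of them called. The difference of 9 genes lost its call without some library, Ddit4, Ndrg1, Ndufa10, Fdps, Stard4, Cyc1, Ndufa5, Slc38a1 and Uqcr10. Depth limits low genes in vitro, where libraries held 2.72 to 3.42 M counts.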

Other observations

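Some genes of the same pathways were too low in one table for the tests and are given as values. Chac1, a glutathione-degrading ATF4 target, had 22 counts over the 4 RISP_WT libraries and 437 over the 4 RISP_KO libraries, and 9 over Untreated and 31 over AntimycinA, where it read up to 1.35 and 2.22 to 5.40 CPM. Pycr1, an enzyme of proline synthesis, read 0.794 to 1.29 CPM in RISP_WT and 4.40 to 8.29 CPM in RISP_KO, without overlap, and 0.270 to 2.11 CPM in Untreated and 1.38 to 10.5 CPM in AntimycinA, where the groups overlapped. Of the 6 mitochondrial mRNAs that were not tested, mt-Atp8 had 10218 to 31021 counts in each library of RISP_WT and RISP_KO and 0 in all 6 in vitro libraries, a gap between tables whose cause was not tested. It read 475 to 637 CPM in RISP_WT and 357 to 425 CPM in RISP_KO. The 16S ribosomal RNA mt-Rnr2 read 2307 to 3306 CPM in RISP_WT and 3050 to 3954 CPM in RISP_KO, which overlapped, and 1283 to 1654 CPM in Untreated and 2902 to 3324 CPM in AntimycinA, which did not.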
